A study of Homo sapiens with 2 samples.

Results

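Contractile actin cytoskeleton genes encode the actin filaments of stress fibres, the myosin light chain that pulls on them, the proteins that lie along the filament or crosslink it, and a protein that ties it to the membrane skeleton. The 10 genes described here (ACTA2, ACTB, TAGLN, CNN1, MYL9, TPM1, TPM2, CALD1, FLNA and ADD2) were chosen by symbol from the 19029 genes measured, and all 10 were found. The choice was made with earlier results of these data known. The genes were followed in BT549, a mesenchymal-like breast cancer line. BT549 cells that overexpress the long non-coding RNA SNHG15, a snoRNA host gene, were set against cells carrying a control vector (pcIp2 in the titles). Both were grown in serum-containing medium, and the sources used here do not say whether either line was a pool or a clone. Each group was 1 library of bulk RNA, so the differences have no replicate check and no p-value was computed across libraries.

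The SNHG15 library held 16570496 counts and the vector library 20799017. SNHG15 itself was at 1997 CPM (counts scaled to library size with TMM factors, which set the bulk of genes equal) against 23.3 CPM, an 85.6-fold difference (95% interval 78.1 to 94.0), in the direction of the labels. The intervals are exact conditional-binomial ones and cover counting error only. The labels give the cells as breast cancer cells. VIM, the mesenchymal filament protein vimentin, was at 1998 and 1993 CPM (ratio 1.0, 0.988 to 1.02), and CDH1, the epithelial cadherin, had 12 and 11 counts, in the SNHG15 and vector libraries. Other markers of these lists differed: of 7 mesenchymal markers CDH2 was 5.28-fold higher (4.12 to 6.82) and FN1, TWIST1 and ZEB1 were lower (1.80-fold, 1.67-fold and 1.70-fold). ZEB2 (1.44, 1.07 to 1.95) and SNAI2 (1.25, 1.01 to 1.53) lay above 1 and short of 1.5-fold. The 7 mesenchymal markers had a median log2 ratio of 0.00 and summed to 2721 against 3239.8 CPM. Of 3 epithelial markers compared, KRT18 was 1.71-fold lower (1.67 to 1.75) and CLDN7 had 2 counts against 40, with KRT19 at 0 against 23 and a sum of 729 against 1239.9 CPM. TWIST1 (0.685) and KRT18 (0.677) were short of 1.5-fold once the GC trend described next was removed. Over the 12934 genes compared, those averaging 1 CPM or more, the log2 ratio of SNHG15 over vector had a median of 0.02, which was 0.13 by library totals. It also followed transcript GC content (Spearman's correlation −0.33 across 12895 genes, a description, since genes are no replicates), and ratios with that trend removed are given for the named genes whose call they change.

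In a contractile cell, non-muscle or smooth muscle actin polymerises into filaments that tropomyosin coats, and myosin II slides them once its regulatory light chain is phosphorylated. Caldesmon, calponin and transgelin bind the filament, filamin crosslinks filaments and links them to integrins, and adducin caps filaments at the spectrin skeleton under the membrane. Many of these genes are targets of serum response factor (SRF), which binds the CArG box, and several serve as markers of smooth muscle, of myofibroblasts and of mesenchymal tumour cells.

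Of the 10 genes, 9 reached a mean of 1 CPM and were compared. ADD2 and ACTA2 were higher in the SNHG15 library, CALD1, MYL9 and TAGLN were lower, and ACTB, TPM1, TPM2 and FLNA were within 1.5-fold. Counted as higher or lower were genes with a ratio of 1.5-fold or more whose interval excluded 1, which held for 13.3% of all genes compared on the higher side and 12.2% on the lower side. With 2 of 9 higher and 3 of 9 lower, few genes carry these counts. Because the genes were chosen with earlier results of these data known, the shares of all genes stand beside them as a description only. By the stricter rule that the whole interval lay beyond 2-fold, ADD2 was the 1 gene higher, against 2.20% of all genes, and 0 were lower, against 2.45%. The median log2 ratio of the 9 was −0.27, against 0.02 for all genes compared, and 7 of the 9 were below 0 (48.9% of all genes were). The median was −0.10 with the GC trend removed, against 0.05 for all genes compared. In bulk RNA, fewer cells of a kind and less RNA per cell cannot be told apart.

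**Figure D1:**
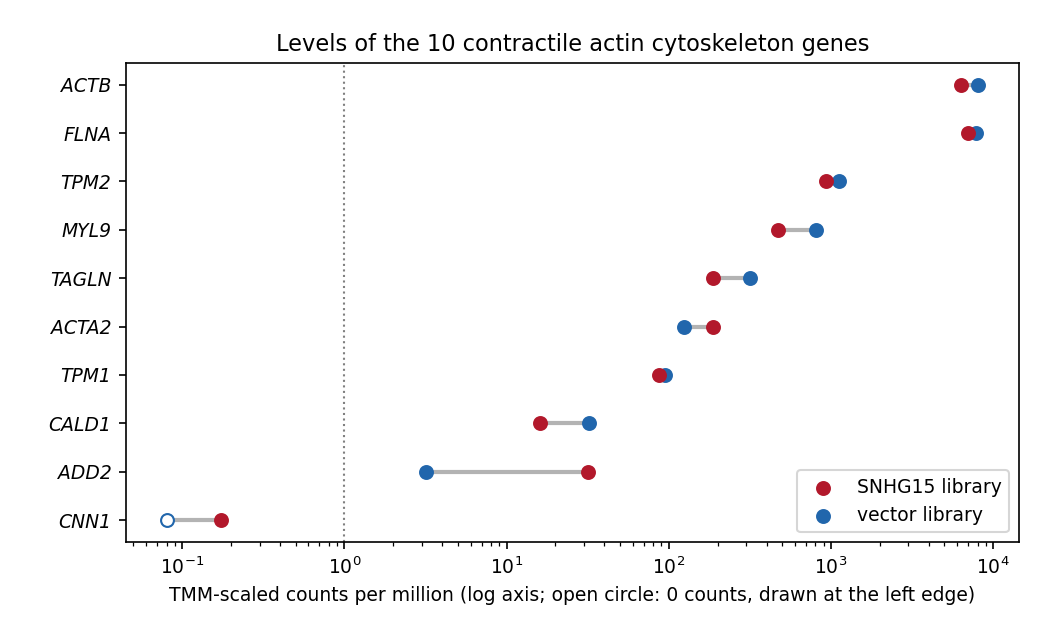
Level of each of the 10 genes in the SNHG15 library (red) and the vector library (blue), as TMM-scaled CPM on a log axis, with 1 library per group. The genes span from CNN1, under the dotted line at 1 CPM, to ACTB and FLNA, and ADD2 shows the widest gap between libraries (31.7 against 3.20 CPM).

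Together the 10 genes took 1.58% of the counts of the SNHG15 library (exact binomial 95% interval 1.58 to 1.59) and 1.76% of the vector library (1.76 to 1.77). ACTB and FLNA made up 87.5% and 86.4% of those counts. The summed share therefore followed these 2 genes, and says little of the rarer ones.

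ACTB, cytoplasmic beta-actin (ENSG00000075624, minus strand of chromosome 7 at 5527151 to 5563784, hg38), had 108426 counts under SNHG15 overexpression and 160729 in the vector library, or 6284 and 8047 CPM. Its ratio was 0.781 (0.775 to 0.787), and 0.935 with the GC trend removed. ACTA2, smooth muscle alpha-actin and a marker of myofibroblasts (ENSG00000107796, minus strand of chromosome 10 at 88935074 to 88991390), went the other way. It had 3212 counts against 2471, or 186 against 124 CPM, and was 1.5-fold higher (1.43 to 1.59). That value lay at the edge of the rule: it was 1.46 by DESeq2 size factors and 1.31 when centred on the median of its chromosome.

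The actin messages are close relatives, which matters for how reads are assigned between them. Over the coding sequence, ACTG1 (cytoplasmic gamma-actin) matched ACTB at 91.3% of aligned positions and ACTA2 at 81.8%. The isoforms are best told apart at the start of the protein, so the first 60 coding bases (GENCODE 29, GRCh38) are shown, with capitals marking bases that did not match ACTB in the alignment.
ACTB: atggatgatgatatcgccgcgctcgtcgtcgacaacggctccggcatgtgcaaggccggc
ACTG1: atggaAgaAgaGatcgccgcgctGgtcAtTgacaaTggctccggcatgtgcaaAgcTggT
ACTA2: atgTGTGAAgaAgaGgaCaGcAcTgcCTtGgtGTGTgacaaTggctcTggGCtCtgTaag
In this stretch 10 bases of ACTG1 and 25 of ACTA2 were unmatched. The more closely matched pair did not share a direction. ACTG1 was at 2591 CPM under SNHG15 overexpression and 2443 CPM in the vector library (ratio 1.06, 1.05 to 1.07), above 1 where ACTB was below it. Ratios taken between genes of the same library need no scaling. The count ratio of ACTA2 to ACTB was 0.0296 under SNHG15 overexpression and 0.0154 in the vector library, a 1.93-fold difference (1.83 to 2.03), and 1.67-fold with the GC trend removed. Against ACTG1 the ACTA2 count ratio differed 1.42-fold (1.34 to 1.5). The muscle actins ACTC1 (3 and 10 counts) and ACTG2 (2 and 0 counts) were near the floor of 3 counts. ACTA1 was not found by symbol among the genes measured.

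By the deposited FPKM, a level per length, ACTB made up 76.0% of the summed actin level under SNHG15 overexpression and 82.0% in the vector library, ACTG1 19.6% and 15.5%, and ACTA2 4.47% and 2.50%. The length behind the FPKM values was longer than the exonic length of GENCODE 29 (8835 against 3519 bases for ACTB, and 14149 against 2993 for ACTG1). Per exonic length the shares were 65.8% and 72.7% for ACTB, 31.9% and 26.0% for ACTG1, and 2.30% and 1.32% for ACTA2. The order of the isoforms and the direction of each difference were the same on both length scales, while the level of ACTG1 relative to ACTB was not.

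The CArG box was searched by name on both strands in the 250 bases before each RefSeq start (GRCh38.p14), for which 7 of the 10 genes had an entry, in 13 windows. ACTB, TAGLN and MYL9 were not among them. A box whose inner letters were all A or T was found in 1 of the 13 windows, that of FLNA, and in 1.16% of all 35116 windows. With at most 1 inner C or G allowed, 3 of the 13 windows held a match, against 7.04% of all windows. They belonged to FLNA, to 1 window of ACTA2 and to CALD1, in 1 of its 4 windows. That ACTA2 window held 2 matches, as 0.587% of windows did at least, and 0.740% of genes had such a window. The other ACTA2 window held 0. All 3 stretches are shown, with the boxes in capitals, because these genes lay on different sides: ACTA2 was higher, CALD1 lower and FLNA within 1.5-fold.
ACTA2, minus strand, chr10:88952820-88952909: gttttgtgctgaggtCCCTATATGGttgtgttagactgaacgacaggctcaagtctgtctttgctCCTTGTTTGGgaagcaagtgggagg
FLNA, minus strand, chrX:154374704-154374743: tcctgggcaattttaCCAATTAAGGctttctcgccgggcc
CALD1, plus strand, chr7:134711458-134711497: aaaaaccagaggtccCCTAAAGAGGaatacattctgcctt
The ACTA2 boxes begin 121 and 71 bases before the start, the FLNA box 94 bases before it and the CALD1 box 26 bases before a RefSeq start that lies upstream of the gene's span in the deposited table. A match describes the letters of the window and no binding was measured. The message of SRF was at 117 CPM under SNHG15 overexpression and 132 CPM in the vector library (ratio 0.888, 0.838 to 0.942), and that of its coactivator MRTFA at 84.7 and 87.1 CPM (0.973, 0.907 to 1.04).

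MYL9, the regulatory light chain of smooth muscle and non-muscle myosin II (ENSG00000101335, plus strand of chromosome 20 at 36541484 to 36551447), had 8077 counts under SNHG15 overexpression and 16242 in the vector library. That was 468 against 813 CPM, 1.74-fold lower (1.69 to 1.78). Its ratio of 0.576 was 0.702 with the GC trend removed and 0.694 when centred on its chromosome, both short of 1.5-fold. MYL12A and MYL12B encode light chains of the same function, and matched MYL9 at 78.9% and 80.8% of aligned coding positions. Their first 60 coding bases are set beside those of MYL9, with capitals marking bases that did not match MYL9, because the 3 genes lay on different sides of 1.
MYL9: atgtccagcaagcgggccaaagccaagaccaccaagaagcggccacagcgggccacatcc
MYL12A: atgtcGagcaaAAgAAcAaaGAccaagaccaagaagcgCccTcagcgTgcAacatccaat
MYL12B: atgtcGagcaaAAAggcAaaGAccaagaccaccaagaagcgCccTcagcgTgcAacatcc
MYL12A was at 223 CPM against 172 (ratio 1.30, 1.24 to 1.36) and MYL12B at 120.2 against 95.7 (1.26, 1.18 to 1.34). Both were on the higher side and short of 1.5-fold. The count ratio of MYL9 to MYL12A was 2.10 under SNHG15 overexpression and 4.74 in the vector library, 2.26-fold lower (2.14 to 2.38), and 1.70-fold lower with the GC trend removed. The ratio of MYL9 to MYL12B was 2.18-fold lower (2.04 to 2.34).

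MYL9 was thus the 1 light chain of 5 counted as lower. The essential light chains MYL6 (ratio 1.12) and MYL6B (1.10) and the heavy chain MYH9 (2043 against 1715 CPM, ratio 1.19, 1.17 to 1.21) lay just above 1. The other heavy chain compared, MYH10, was at 41.4 and 41.2 CPM. MYL9 made up 42.4% of the summed FPKM of the 5 light chains under SNHG15 overexpression and 60.5% in the vector library (37.0% and 54.7% per exonic length). It was the most abundant light chain in both libraries on both length scales.

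**Figure D2:**
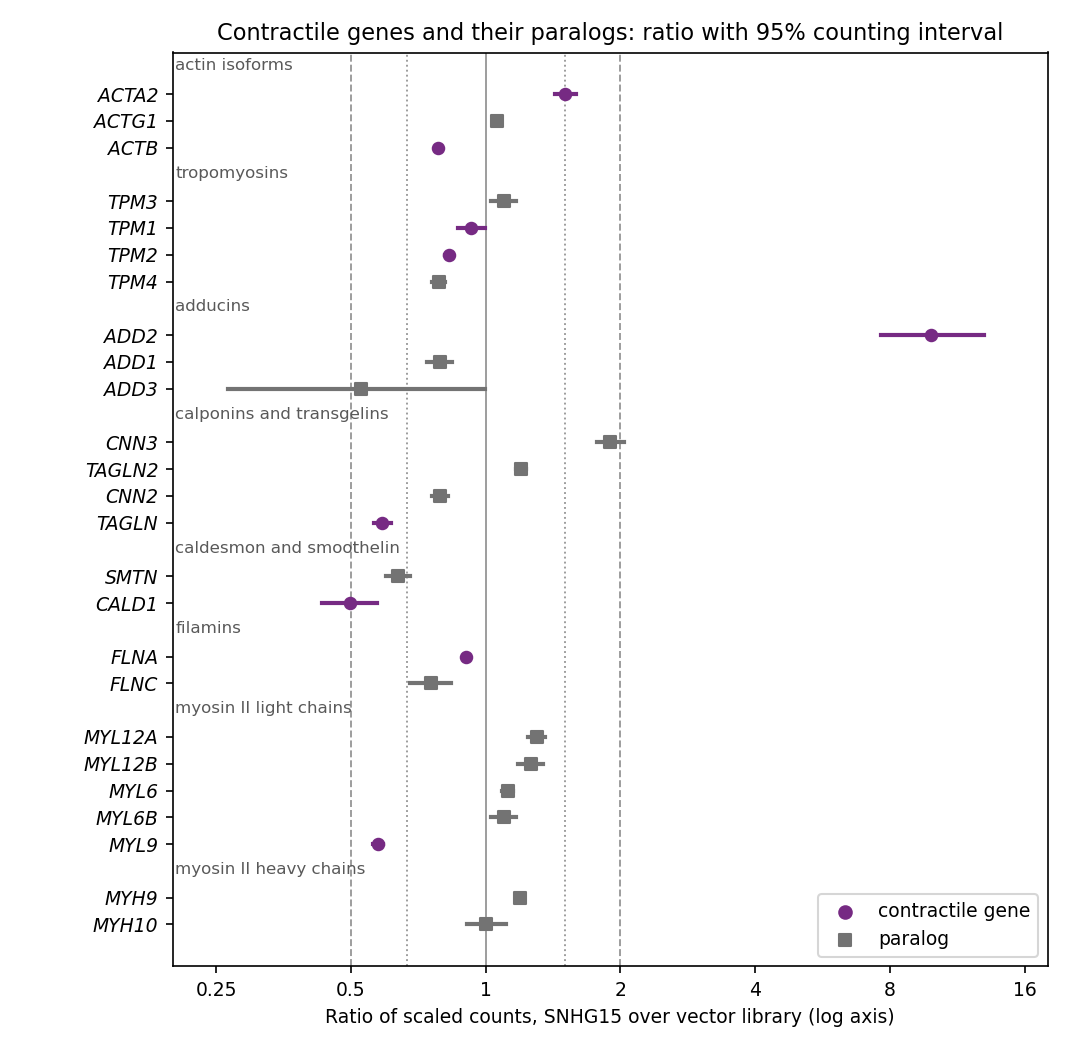
Ratio of scaled counts, SNHG15 over vector library, on a log axis, for the contractile genes (purple circles) and their paralogs (grey squares) averaging 1 CPM or more; bars are 95% counting intervals, dotted lines mark 1.5-fold and dashed lines 2-fold. Within the actins, tropomyosins, light chains, transgelins and adducins a contractile gene and a paralog lie on opposite sides of 1, as with MYL9 (0.576) and MYL12A (1.30).

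Tropomyosins lie end to end along the filament and set which partners can bind it. TPM2 (ENSG00000198467, minus strand of chromosome 9 at 35681992 to 35691020) had 15994 counts against 22378, or 927 against 1120.3 CPM, a ratio of 0.827 (0.811 to 0.844). TPM1 (ENSG00000140416, plus strand of chromosome 15 at 63042632 to 63071915) had 1510 counts against 1882, or 87.5 against 94.2 CPM, a ratio of 0.929 (0.867 to 0.994). That small difference turned by library totals, to 1.01. TPM4 was at 0.785 (0.760 to 0.811) and TPM3 at 1.10 (1.03 to 1.17), so 0 of the 4 tropomyosins were counted as higher or lower. TPM2 made up 78.2% of the summed tropomyosin FPKM under SNHG15 overexpression and 78.0% in the vector library, followed by TPM4 at 17.6% and 18.5%. TPM3 and TPM1 each held under a few percent. The count ratio of TPM2 to TPM4 differed by a factor of 1.05 (1.01 to 1.09), and 1.28 with the GC trend removed. That of TPM2 to TPM1 differed by 0.891 (0.830 to 0.956). The ratio of TPM2 to TPM3 differed by 0.754 (0.703 to 0.808), and 0.929 with the GC trend removed. By share of FPKM the make-up of the family was close in the 2 libraries. Gene-level counts do not resolve the muscle and non-muscle splice forms of each gene.

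CALD1, caldesmon (ENSG00000122786, plus strand of chromosome 7 at 134744252 to 134970728), an inhibitor of actomyosin that binds actin and tropomyosin, had 277 counts against 645. At 16.1 against 32.3 CPM it was 2.01-fold lower (1.74 to 2.32), the widest gap on the lower side among the 9 genes. It was counted as lower under each of the 9 scalings and corrections tried, with ratios from 0.461 to 0.599. SMTN, smoothelin, another actin-binding protein of contractile smooth muscle, was 1.57-fold lower (1.48 to 1.67), at 88.8 against 139.6 CPM, and at 0.789 with the GC trend removed it was no longer counted.

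TAGLN, transgelin or SM22 (ENSG00000149591, plus strand of chromosome 11 at 117199321 to 117204782), an actin-bundling protein used as an early smooth muscle and TGF-beta response marker, had 3213 counts against 6321. That was 186 against 316 CPM, 1.70-fold lower (1.63 to 1.77). With the GC trend removed its ratio went from 0.588 to 0.687, short of 1.5-fold. It overlaps PCSK7 on the opposite strand over 446 bases, and PCSK7 had 1874 and 3095 counts (ratio 0.701). The sources used here do not say whether the libraries kept strand, so reads of the overlap cannot be assigned with certainty. TAGLN2, the widely expressed paralog, was at 657 against 548 CPM (ratio 1.20, 1.17 to 1.23). The count ratio of TAGLN to TAGLN2 was 0.283 under SNHG15 overexpression and 0.577 in the vector library, 2.04-fold lower (1.94 to 2.14), and 2.01-fold lower with the GC trend removed. Scaling drops out of such a ratio by construction, and removing the GC trend changed this contrast between paralogs little. The part of the chromosome and of the PCSK7 overlap in it was not tested.

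TAGLN and ACTA2 are often read together as contractile markers. In the SNHG15 library they had nearly equal counts (3213 and 3212), and in the vector library TAGLN had more (6321 and 2471). The count ratio of ACTA2 to TAGLN was 2.56-fold higher (2.39 to 2.74) in the SNHG15 library, and 2.27-fold with the GC trend removed. TAGLN and MYL9 stood in nearly the same proportion in both libraries, at a count ratio of 0.398 against 0.389 (a factor of 1.02, 0.972 to 1.07).

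CNN1, calponin 1, a marker of differentiated smooth muscle (ENSG00000130176, plus strand of chromosome 19 at 11538717 to 11550323), had 3 counts under SNHG15 overexpression and 0 in the vector library. Both were at or under the floor of 3 counts, which is 0.174 CPM under SNHG15 overexpression and 0.150 CPM in the vector library, so no ratio is given and a difference was not detectable at this depth. Its paralogs carried the calponin message. CNN3, acidic calponin, was at 127 against 66.6 CPM, 1.90-fold higher (1.77 to 2.04), and CNN2 at 225 against 285 CPM (ratio 0.790, 0.758 to 0.823). CNN3 stood to CNN2 at a count ratio of 0.562 against 0.234, a 2.40-fold difference (2.22 to 2.60), and 1.87-fold with the GC trend removed. By FPKM, TAGLN2 was the largest of the calponins and transgelins in both libraries (74.1% and 67.6%). TAGLN went from 13.7% of the family in the vector library to 7.35% in the SNHG15 library, and CNN3 from 4.91% to 8.53%.

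FLNA, filamin A (ENSG00000196924, minus strand of chromosome X at 154348524 to 154374638), which crosslinks filaments into networks and binds integrin tails, had 121318 counts against 155699, or 7031 against 7795 CPM. The ratio was 0.902 (0.895 to 0.909), and it was 1.11 with the GC trend removed, so the side of 1 on which it lay depended on the correction. Its paralog FLNC, found mainly in muscle, had 579 counts against 889 (ratio 0.754, 0.678 to 0.838), also short of 1.5-fold.

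ADD2, beta-adducin (ENSG00000075340, minus strand of chromosome 2 at 70607618 to 70768225), caps actin filaments and recruits spectrin to them, and is best known from red cells and neurons. It had 547 counts under SNHG15 overexpression and 64 in the vector library, or 31.7 against 3.20 CPM. It was 9.89-fold higher (7.63 to 13.0), and from 9.06 to 11.1-fold under the 9 scalings and corrections tried. Its widely expressed partner ADD1, alpha-adducin, went slightly the other way, at 89.4 against 113 CPM (ratio 0.789, 0.739 to 0.842), and ADD3 had 15 counts against 33 (0.526, 0.266 to 0.996). ADD2 stood to ADD1 at a count ratio of 0.355 against 0.0283, a 12.5-fold difference (9.60 to 16.4). By FPKM, ADD2 made up 34.4% of the adducins under SNHG15 overexpression and 3.97% in the vector library (26.4% and 2.76% per exonic length). ADD1 remained the more abundant subunit gene in both.

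**Figure D3:**
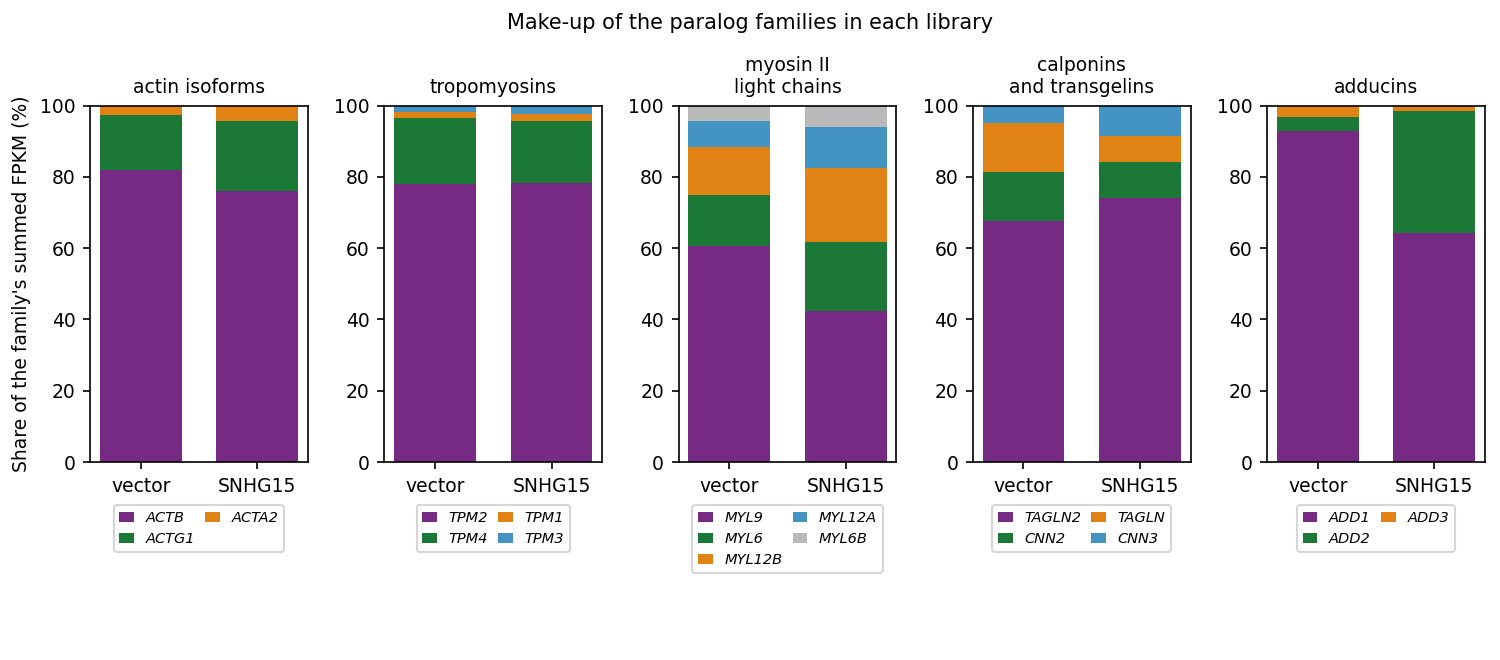
Share of each paralog in the summed FPKM of its family, in percent, in the vector and SNHG15 libraries (1 library each; paralogs under 0.1% in both are left out). Tropomyosins look alike in the 2 libraries (TPM2 78.0% and 78.2%), while MYL9 goes from 60.5% to 42.4% of the light chains and ADD2 from 3.97% to 34.4% of the adducins.

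Around ADD2, the spectrin membrane skeleton did not share its direction as a group. Of 17 genes listed, 11 were compared, of which 1 was higher, 3 were lower and 7 were neither, with a median log2 ratio of −0.04 (0.07 by library totals). The main spectrin chains SPTAN1 (ratio 1.46, 1.41 to 1.52) and SPTBN1 (1.42, 1.35 to 1.5) lay above 1 and short of 1.5-fold, though SPTAN1 reached 1.54 with the GC trend removed. ANK1, an ankyrin that anchors spectrin to membrane proteins, was 2.77-fold lower (2.57 to 2.99), at 50.8 against 141 CPM. SPTB, the red cell beta-spectrin, had 10 counts against 29 (ratio 0.399, 0.174 to 0.843), MPP1 was at 0.631 (0.467 to 0.848), and EPB41L2, a protein 4.1 relative, was 1.60-fold higher (1.40 to 1.82) but at 1.48 with the GC trend removed. SPTB (0.475) was no longer counted as lower with that trend removed, since its interval then included 1, which left 2 lower.

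Genes that set myosin phosphorylation, with RHOA and related small GTPases, through which stress fibres are tensed, had a median log2 ratio of 0.07 (21 compared, 1 higher, 5 lower, 15 neither). MYLK, the light chain kinase that acts on MYL9, was the higher gene, at 25.4 against 15.2 CPM (1.67-fold, 1.44 to 1.94). LIMK1, the kinase that inactivates cofilin, was 2.59-fold lower (2.46 to 2.74), RND3, an antagonist of RhoA signalling, 2.15-fold (1.87 to 2.49) and ARHGEF1, an exchange factor for RHOA, 1.59-fold (1.51 to 1.68). RHOA itself was at 1043 and 1035 CPM. RHOB and LIMK2 were the other genes counted as lower, at 1.66-fold and 1.51-fold. With the GC trend removed LIMK1 and RND3 were still counted as lower, ARHGEF1 (0.782), RHOB (0.695) and LIMK2 (0.728) were not, and PPP1R12B (0.658) was.

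SRF and its coactivators had 1 of 7 genes higher (SCAI, an inhibitor of MRTF, at 63 counts against 46, and at 1.40 with the GC trend removed no longer counted) and 0 lower, and other SRF and YAP targets had 3 of 17 higher and 1 lower, with medians of 0.22 and 0.20. Among these targets CSRP2, a LIM protein of smooth muscle, was 2.73-fold higher (2.27 to 3.30), FHL1 1.89-fold (1.64 to 2.19) and AMOTL2 1.84-fold (1.72 to 1.96). FOSL1, an AP-1 subunit, was 3.76-fold lower (3.54 to 3.99). VCL, vinculin, was at 220.4 against 155 CPM (ratio 1.42, 1.35 to 1.49) and ZYX, zyxin, at 209 against 308 CPM (0.679, 0.651 to 0.707), on opposite sides of 1 and both short of 1.5-fold. The SRF targets in the list and among the contractile genes therefore lay on both sides.

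TGF-beta ligands, receptors and signal carriers, which induce ACTA2 and TAGLN in many cells, had 3 of 14 genes higher and 4 lower (median −0.17). TGFB1 was 1.75-fold lower (1.68 to 1.83), at 189 against 330.3 CPM, its receptor TGFBR2 1.69-fold lower (1.58 to 1.82), and the latent TGF-beta binding protein LTBP3 1.63-fold lower (1.59 to 1.68), and SMAD7, an inhibitor of the pathway, was 1.62-fold lower (1.35 to 1.94). TGFB3 was 2.33-fold higher (1.87 to 2.92), SMAD4 2.21-fold (1.75 to 2.80) and TGFB2 1.76-fold (1.20 to 2.61). With the GC trend removed, TGFB1 (0.702), LTBP3 (0.766) and SMAD7 (0.705) were no longer counted, TGFBR3 (0.639) was lower and LTBP2 (1.67) higher, which made 4 higher and 2 lower.

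Among actin crosslinkers 3 of 11 genes were higher and 0 lower (median 0.29). The plastins PLS3 (1.89-fold, 1.76 to 2.03) and PLS1 (29 counts against 8) and the membrane linker EZR, ezrin (1.63-fold, 1.57 to 1.70), were the higher ones. Actin turnover genes were close in the libraries, with 1 of 22 higher, 0 lower and a median of −0.17. The exception, TMSB15A, had 36 counts against 11, while the abundant PFN1, profilin (ratio 0.715, 0.706 to 0.724), and CFL1, cofilin (0.765, 0.754 to 0.776), were lower by less than 1.5-fold. With the GC trend removed 1 turnover gene, CAPZA1 (0.652), was counted as lower.

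Of the ARP2/3 complex and other nucleators, 26 were compared, with 2 higher, 3 lower and a median of −0.05. The formin DIAPH1, a RhoA effector, was 1.88-fold higher (1.77 to 2.0), and FHOD3, a formin of muscle, was at 88 counts against 62 (1.64-fold, 1.17 to 2.31). ARPC1B was 1.87-fold lower (1.80 to 1.94), FHOD1 1.81-fold (1.67 to 1.96) and SPIRE2 1.82-fold (1.59 to 2.10), of which FHOD1 (0.672) fell just short with the GC trend removed. WASL (0.630) was then counted as lower, so 3 were still lower. Focal adhesion and stress fibre LIM proteins had 4 of 29 higher and 6 lower, with a median of −0.17 that was 0.02 with the GC trend removed. PDLIM3 was 3.47-fold higher (2.47 to 4.96), ENAH 1.76-fold (1.59 to 1.96) and TNS1 had 41 counts against 12, and LPP was the other gene higher (1.65-fold, 1.40 to 1.95). FERMT1, kindlin-1, was 11.4-fold lower (6.63 to 21.3), at 14 counts against 185, PARVA 2.0-fold (1.71 to 2.34) and PDLIM1 1.57-fold (1.47 to 1.68), with TNS3, TES and NEXN also counted as lower. LPP (1.47) and TNS3 (0.723) were short of 1.5-fold with the GC trend removed, while PDLIM4 (2.08) was then counted as higher. That made 4 higher and 5 lower. Each of these lists held genes on both sides or mostly within 1.5-fold.

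**Figure D4:**
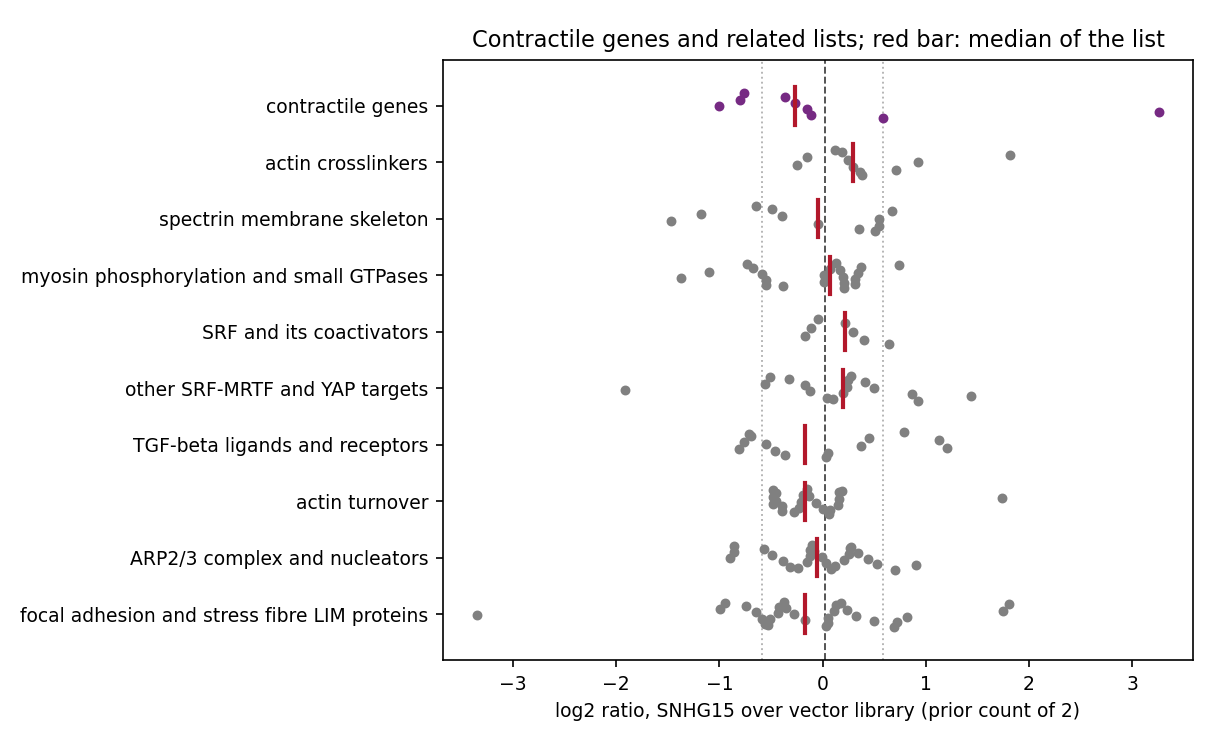
Log2 ratio (prior count of 2) of each gene compared, for the 9 contractile genes (purple) and 9 related lists (grey); the red bar is the median of the list, the dashed line the median of all genes (0.02) and the dotted lines 1.5-fold. The contractile genes have a median of −0.27 with ADD2 far to the right, and the related lists have medians from −0.17 to 0.29.

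Pathways as annotated in the deposited table held genes on both sides. For vascular smooth muscle contraction, which holds ACTA2, MYL9 and CALD1, 8 of 69 genes were higher (11.6%) and 13 lower (18.8%), with a median of −0.07. For regulation of the actin cytoskeleton, 22 of 147 were higher (15%) and 14 lower (9.52%), with a median of 0.01. For focal adhesion, which holds ACTB, MYL9 and FLNA, 19 of 144 were higher (13.2%) and 22 lower (15.3%), with a median of −0.05. These shares stand beside 13.3% and 12.2% of all genes.

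Markers of other cells that use contractile genes were checked in both libraries. Of 8 markers of differentiated smooth muscle, SMTN was the 1 compared. LMOD1 (4 and 8 counts), SYNPO2 (6 and 5) and ACTG2 (2 and 0) were under 1 CPM. DES, MYH11, MYOCD and KCNMB1 were not found by symbol among the genes measured. The list summed to 89.5 CPM under SNHG15 overexpression and 140.2 CPM in the vector library, nearly all of it SMTN. Fibroblast markers were lower in all 6 genes compared (6 of 8 listed), and summed to 1210.0 against 2799.7 CPM. COL1A1 (2.07-fold lower, 2.02 to 2.11), COL1A2 (7.33-fold, 6.81 to 7.89) and THY1 (2.0-fold, 1.95 to 2.06) stood at the same side as TAGLN, MYL9 and CALD1, and opposite to ACTA2. The part of the fibroblast markers in the lower contractile genes was not tested.

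Pericyte markers had 1 of 5 higher, RGS5 (182 counts against 47, 4.48-fold, 3.24 to 6.32), and summed to 994 against 770.3 CPM. A further identifier of the RGS5 symbol had 9 and 9 counts. Most of the sum was NOTCH3, at 835 against 637 CPM (ratio 1.31, 1.28 to 1.34), which was counted as higher with the GC trend removed (1.63). CSPG4 (1.18), MCAM (1.01) and PDGFRB (0.822) were neither. Skeletal and cardiac muscle markers were carried by TNNT1, slow troponin T, at 176 against 108 CPM (1.63-fold higher, 1.54 to 1.72), with ACTC1 at 3 and 10 counts. Of the 9 markers in that list, these 2 were found by symbol among the genes measured. For ADD2, the erythroid list held ANK1 alone, which was lower, and of 7 neuronal markers TUBB3 was 1.90-fold higher (1.82 to 1.98), SNAP25 was 2.46-fold lower (1.55 to 4.01) and SYP was neither (1.35, and 1.57 with the GC trend removed). MAP2 had 9 and 10 counts, STMN2 2 and 3, and GAP43 2 and 0. The neuronal list summed to 326 against 177 CPM, nearly all of it TUBB3. With 1 erythroid and 3 neuronal markers compared, these lists are too small to say whether either moved with ADD2.

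Ratios also differed by chromosome, and several of these genes lie where neighbours leaned the same way. The median log2 ratio was −0.27 over 602 genes of chromosome 7, which holds ACTB and CALD1, −0.27 over 362 genes of chromosome 20 (MYL9), −0.23 over 719 genes of chromosome 11 (TAGLN) and 0.20 over 492 genes of chromosome 10 (ACTA2). It was 0.00 over 816 genes of chromosome 2 (ADD2). Among the 40 nearest genes compared, the median was −0.30 around ACTB, −0.25 around MYL9, −0.19 around CALD1, 0.30 around ACTA2, 0.04 around TAGLN and 0.03 around ADD2. TPM1, TPM2 and FLNA had log2 ratios below 0, while the median around them was 0.13, 0.06 and 0.03. Relative to these neighbours the ratio was 0.961 for ACTB, 0.686 for MYL9, 0.568 for CALD1, 1.22 for ACTA2, 0.574 for TAGLN and 9.38 for ADD2. For TPM1, TPM2 and FLNA it was 0.848, 0.792 and 0.885. MYL9 and ACTA2 were then short of 1.5-fold, and the part of the chromosome in their values was not tested.

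**Figure D5:**
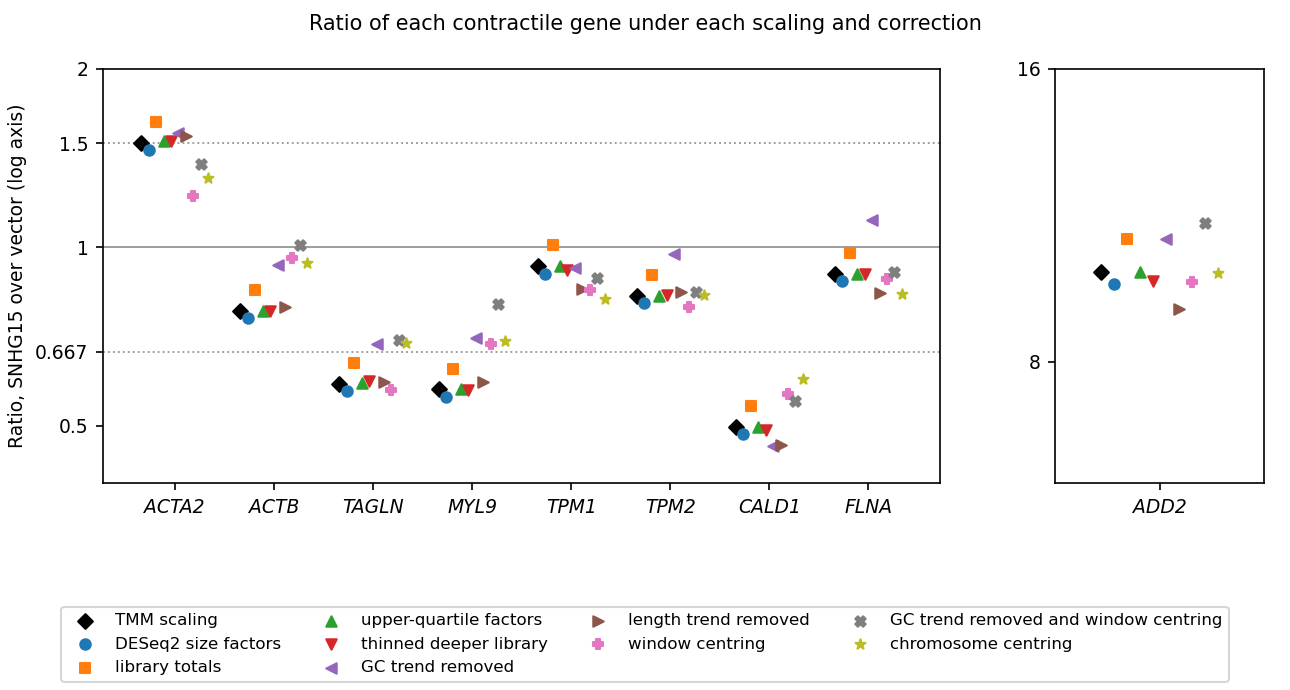
Ratio of SNHG15 over vector library for each contractile gene compared, on log axes, under TMM scaling (black diamonds) and 9 other scalings or corrections; dotted lines mark 1.5-fold and ADD2 has its own axis. ADD2 and CALD1 stay past 1.5-fold under all of them, while ACTA2, TAGLN and MYL9 cross the dotted lines under some.

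The authors' deposited table called ADD2 alone of the 10 genes different, with a log2 FPKM ratio of 3.42 and an adjusted p of 1.19e-30. Of all genes, 4.88% were called higher and 3.27% lower in the authors' deposited table, by an absolute log2 ratio of at least 1 and an adjusted p under 0.05. The authors' deposited table gave CALD1 a log2 ratio of −0.89, MYL9 −0.68, TAGLN −0.65 and ACTA2 0.71, each short of 1, with adjusted p-values of 0.000303, 0.00190, 0.00335 and 0.0359. These p-values rest on an assumed coefficient of variation of 0.1, since 1 library per group gives no estimate of it.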

How the data were processed

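Total RNA of 2 BT549 cultures was sequenced, 1 library per group, and groups were taken from the genotype in the labels. Per the submitters' processing notes, hg38 was used. Aligner, counter, annotation release, strandedness and RNA selection are not given in the sources used here. Counts per gene were deposited by the authors as whole numbers without normalization. The authors also gave FPKM values in the same table. The log2 ratio deposited by the authors is that of the FPKM values without a pseudocount. The p-values deposited by the authors match an exact test in edgeR (TMM factors, assumed coefficient of variation 0.1) to within 4.26e-14 in log10 p.

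Counts were scaled by TMM factors (SNHG15 1.04, vector 0.960) from edgeR 4.0.16, run in R 4.3.3; its quasi-likelihood test needs replicates and was not used. Ratios carry exact conditional-binomial 95% intervals, and log2 ratios a prior count of 2. Reads are not independent molecules, so intervals and floors of 3 counts cover counting error only. Intervals of ratios between 2 genes are normal approximations on the log scale. GC content and exonic length came from GENCODE 29, which matched 18903 of 19029 identifiers, and 99.7% of genes compared had a GC value. The GC trend was removed by loess with a span of 0.5. The alternatives tried were scaling by library totals, by DESeq2 1.42.0 and by upper-quartile factors, other filters on low counts, thinning of the deeper library, removal of the GC or length trend, other prior counts, FPKM, point ratios and means. Centring on 40 neighbouring genes or on the chromosome, leaving out ADD2, the shares per exonic length and the pathways of the deposited table were added after the data were seen. The functions were tested on simulated data. The 10 genes and the related lists were chosen with earlier results of these data known. Named genes were the 10, their paralogs, SNHG15 and up to 3 highest and 3 lowest genes of each other list by the interval bound nearest to 1. Beyond this rule, VIM, CDH1, SRF, MRTFA, RHOA, VCL, ZYX, PFN1, CFL1, SPTAN1, SPTBN1, RHOB, LIMK2, SMAD7, LPP, TNS3, TES, NEXN, PPP1R12B, TGFBR3, LTBP2, PDLIM4, WASL, CAPZA1 and the marker genes were named after their values were seen. Promoter sequences came from RefSeq (GRCh38.p14). Some genes of the lists are not reported here.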

Additional observations from a re-analysis of the deposited data

How the results depend on the processing

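The 3 genes lower and 2 higher by 1.5-fold kept these counts by library totals, upper-quartile factors, thinning, removal of the length trend, and both other filters. The number higher was 1 (ADD2) by DESeq2 size factors and with centring on windows, with the GC trend removed and windows centred, and on chromosomes. The number lower was 1 (CALD1) with the GC trend removed, alone or with window centring, and with chromosome centring. It was 2 (TAGLN and CALD1) with window centring alone. By point ratio 1 gene (CALD1) was 2-fold lower, against 0 by the whole interval. The median log2 ratio of −0.27 was −0.31 by DESeq2 size factors and also without ADD2, −0.16 by library totals and by FPKM with pseudocounts of 1 and 0.1, −0.21 with no filter, −0.10 after removal of the GC trend, −0.24 after window centring and −0.17 after both, while the mean over the genes was 0.04, the other side of 0. The cause of these shifts was not tested, apart from the mean, which ADD2 raises. Of single ratios, TPM1 reached 1.01 by library totals, FLNA 1.11 with the GC trend removed and ACTB 1.01 with GC and windows. No paired analysis was possible because each group held 1 library. Depth limits CNN1, ACTG2 and ACTC1, and counts under about 100 give wide intervals, as for ADD3.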
